A study of Mus musculus with 6 samples.

Results

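The genes described here are 40 listed genes of glucose uptake, glycolysis, lactate handling, the pentose phosphate pathway and the response to low oxygen. They were taken by gene symbol, and for each the brightest probe set, by mean over the 6 arrays, was used among those annotated to that gene alone. This gave values for 36 of the 40, out of 18193 genes measured in all. Gpi1, Gapdh, Eno1 and G6pdx had no probe set that carried their symbol alone and were not analysed. Of the 36, 27 belong to glucose metabolism and 9 to the low-oxygen response.

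The study asked how cytokines direct progenitors into the dendritic cell lineage. Total RNA from cultured C57BL/6 mouse bone marrow cells was hybridised to Affymetrix arrays in 3 groups of 2. Group GM-MPP held multipotent progenitors grown in stem cell cytokines together with GM-CSF, a myeloid growth factor. Group GM-DC held dendritic cells derived from GM-MPP in GM-CSF, and group GM-TNFa-DC held dendritic cells derived with GM-CSF and TNFa, an inflammatory cytokine. All 3 groups had therefore been exposed to GM-CSF, and each was a bulk culture. The labels number the arrays 1 and 2 within each group. They do not say what arrays of the same number share, nor whether both arrays of any group stem from separate animals or cultures. The p-values below measure only the spread between these arrays, which may be technical.

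Glycolysis breaks glucose down to pyruvate. Transporters bring glucose in, hexokinase traps it, and phosphofructokinase and pyruvate kinase are the main control points. Pyruvate is either reduced to lactate and exported or passed to the mitochondria, while the pentose phosphate pathway diverts glucose 6-phosphate to make NADPH and ribose. When oxygen is low the transcription factor HIF-1 escapes prolyl hydroxylation and raises many of these genes through the core motif ACGTG or GCGTG. Dendritic cells are known to rely heavily on glycolysis when they are activated.

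The promoters of the genes called between groups are shown because HIF-1 target genes carry this core. RefSeq windows of 250 bases before the transcription start (build GRCm38.p6) were found for 34 of the 36 genes, with 47 windows in all. Slc2a3 and Ndrg1 had no entry. The windows below belong to the 7 genes that rose in dendritic cells (Aldoc has 2), to Slc16a1 and Taldo1, which fell, and to Ldha, which was not called between groups but differed between array numbers. Ldha has 2 windows, and only the one with 5 matches is shown. The other holds 1 match, a GCGTG. Other genes that differed between array numbers but not between groups are not shown, and among them Tpi1 and Fbp1 had no match. They are written 5′ to 3′ in the direction of the gene. Capitals mark ACGTG and GCGTG or their reverse complements CACGT and CACGC.
Slc2a1 (chr4:119108495-119108744, plus strand): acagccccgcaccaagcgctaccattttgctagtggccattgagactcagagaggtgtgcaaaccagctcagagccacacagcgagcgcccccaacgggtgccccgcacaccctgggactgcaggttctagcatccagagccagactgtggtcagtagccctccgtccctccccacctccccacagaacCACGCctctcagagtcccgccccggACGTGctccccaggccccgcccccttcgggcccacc
Hk2 (chr6:82774455-82774704, minus strand): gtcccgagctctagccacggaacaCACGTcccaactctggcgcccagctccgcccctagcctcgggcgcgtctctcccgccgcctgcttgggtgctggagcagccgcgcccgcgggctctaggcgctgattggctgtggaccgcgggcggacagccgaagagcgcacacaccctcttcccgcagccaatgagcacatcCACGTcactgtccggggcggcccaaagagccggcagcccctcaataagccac
Aldoc (chr11:78322823-78323072, plus strand): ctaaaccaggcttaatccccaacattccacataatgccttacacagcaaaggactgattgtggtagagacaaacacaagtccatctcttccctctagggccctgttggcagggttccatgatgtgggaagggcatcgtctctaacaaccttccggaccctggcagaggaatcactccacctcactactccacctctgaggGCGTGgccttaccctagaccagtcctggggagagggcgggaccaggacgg
Aldoc (chr11:78323948-78324197, plus strand): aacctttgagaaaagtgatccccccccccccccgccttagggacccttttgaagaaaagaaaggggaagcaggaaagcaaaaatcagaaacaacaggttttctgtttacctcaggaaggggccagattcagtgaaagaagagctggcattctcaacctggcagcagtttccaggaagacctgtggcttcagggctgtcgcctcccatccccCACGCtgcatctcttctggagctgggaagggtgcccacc
Egln1 (chr8:124949255-124949504, minus strand): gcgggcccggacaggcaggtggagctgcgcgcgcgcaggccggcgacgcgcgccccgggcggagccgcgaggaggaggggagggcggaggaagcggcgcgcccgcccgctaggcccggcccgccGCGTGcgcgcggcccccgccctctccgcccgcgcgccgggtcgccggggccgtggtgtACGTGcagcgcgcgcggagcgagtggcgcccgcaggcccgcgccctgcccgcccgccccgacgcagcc
P4ha1 (chr10:59323046-59323295, plus strand): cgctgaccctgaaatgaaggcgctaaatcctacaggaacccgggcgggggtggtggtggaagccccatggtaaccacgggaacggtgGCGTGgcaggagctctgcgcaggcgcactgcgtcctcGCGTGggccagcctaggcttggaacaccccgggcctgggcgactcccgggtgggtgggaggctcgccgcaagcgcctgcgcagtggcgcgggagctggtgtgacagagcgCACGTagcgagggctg
P4ha2 (chr11:54100674-54100923, plus strand): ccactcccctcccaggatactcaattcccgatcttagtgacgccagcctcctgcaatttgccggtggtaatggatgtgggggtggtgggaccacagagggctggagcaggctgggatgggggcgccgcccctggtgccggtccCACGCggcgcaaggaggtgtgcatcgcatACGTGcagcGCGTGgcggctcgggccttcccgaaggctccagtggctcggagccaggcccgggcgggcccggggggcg
Ankrd37 (chr8:45999851-46000100, minus strand): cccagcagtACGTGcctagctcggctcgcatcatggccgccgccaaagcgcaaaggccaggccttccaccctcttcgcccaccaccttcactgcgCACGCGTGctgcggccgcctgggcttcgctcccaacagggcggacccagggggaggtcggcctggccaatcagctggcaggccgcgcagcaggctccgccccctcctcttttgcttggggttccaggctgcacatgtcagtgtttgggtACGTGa
Slc16a1 (chr3:104638414-104638663, plus strand): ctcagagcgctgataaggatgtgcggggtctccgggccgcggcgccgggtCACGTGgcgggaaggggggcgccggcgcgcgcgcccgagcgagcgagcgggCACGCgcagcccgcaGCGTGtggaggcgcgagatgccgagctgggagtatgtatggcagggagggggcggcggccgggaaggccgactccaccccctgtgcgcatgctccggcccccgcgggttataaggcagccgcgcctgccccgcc
Taldo1 (chr7:141391910-141392159, plus strand): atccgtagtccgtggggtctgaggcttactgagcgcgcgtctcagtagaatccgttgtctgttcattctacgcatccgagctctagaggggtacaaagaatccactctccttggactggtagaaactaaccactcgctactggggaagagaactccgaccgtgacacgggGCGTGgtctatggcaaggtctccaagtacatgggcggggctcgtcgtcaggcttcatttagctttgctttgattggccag
Ldha (chr7:46845554-46845803, plus strand): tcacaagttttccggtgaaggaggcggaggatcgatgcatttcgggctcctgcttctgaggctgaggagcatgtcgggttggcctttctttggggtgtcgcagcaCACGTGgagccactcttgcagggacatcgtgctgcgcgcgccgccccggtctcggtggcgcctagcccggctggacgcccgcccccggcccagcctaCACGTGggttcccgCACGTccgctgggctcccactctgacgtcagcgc
ACGTG or GCGTG, on either strand, was present in 37 of the 47 windows, or 78.7%, against 38.6% of all 32851 windows in the table. ACGTG, with or without GCGTG, was present in 24 windows (51.1%) against 16.6% of all windows. GCGTG, with or without ACGTG, was present in 25 windows, and in 28.2% of all windows. CACGTG holds ACGTG on both strands and was counted on each, as in the Slc16a1 window. Median GC content was 60.4% in the member windows and 52.4% in all windows, and its part in the motif counts was not tested. Windows with the motif belonged to genes that rose, genes that fell and genes that did neither, and a match is a run of letters, not a site shown to be bound.

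Values are log2 levels, so a difference of 1 is a 2-fold change. Array medians lay between 4.67 and 4.77. Dendritic cell markers matched the labels: 6 of 7 rose in GM-DC, among them Itgax and Ccr7, while Zbtb46 did not pass the test. Progenitor genes fell in 5 of 6 cases, among them Cd34, Myb and Mpo, but the stem cell factor receptor Kit was above GM-MPP (7.09 and 7.22) on both number-1 dendritic cell arrays, at 8.66 in GM-TNFa-DC, and below it on both number-2 arrays, at 5.65 and 5.43. Granule genes of neutrophils and their precursors were high in GM-MPP and fell in 4 of 7 cases in GM-DC and 5 of 7 in GM-TNFa-DC. Poly-A spike-in controls were brighter on the number-1 array for 24 of 24 probe sets in every group, the ratio being lowest in GM-DC (2.16) and highest in GM-TNFa-DC (2.60). In bulk RNA, fewer cells of a type and less RNA per cell cannot be told apart.

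In GM-DC, 7 members rose and 2 fell relative to GM-MPP. The 7 were the glucose transporter Slc2a1, hexokinase Hk2, aldolase Aldoc, the oxygen sensor Egln1, the collagen prolyl hydroxylase subunits P4ha1 and P4ha2, and Ankrd37, an ankyrin-repeat gene known as a HIF-1 target. The 2 were the glucose transporter Slc2a3 and the lactate carrier Slc16a1. A gene was called when its Benjamini-Hochberg adjusted p over all 18193 genes, from limma's moderated test, was under 0.05. Of all genes, 4.5% were called in this comparison, 1.87% higher and 2.63% lower. In GM-TNFa-DC, 7 members rose and 3 fell, against 7.03% of all genes (2.77% higher and 4.26% lower). The fall of the transaldolase gene Taldo1 is added here. Both comparisons share the GM-MPP arrays, so they are not independent of each other.

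The median change over the 36 members was 0.68 on the log2 scale in GM-DC and 0.74 in GM-TNFa-DC, against 0.02 and 0.05 for all genes. The median differed by array number. It was 0.32 between the number-1 arrays and 0.95 between the number-2 arrays for GM-DC, and 0.37 and 1.11 for GM-TNFa-DC. For 19 of the 36 members all 4 dendritic cell arrays were above both GM-MPP arrays, as were 21.5% of all genes. For 5 members all 4 were below, against 21.2% of all genes, and 12 members overlapped.

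**Figure D1:**
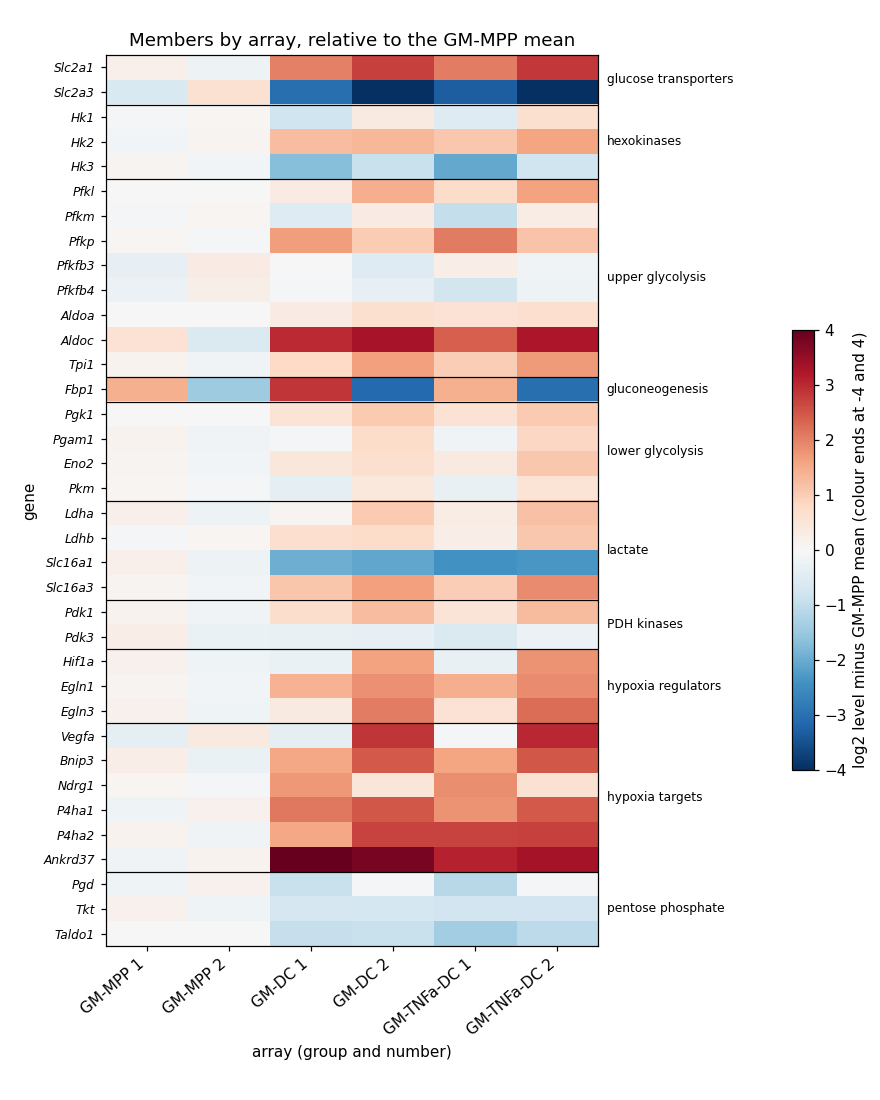
Each row is one of the 36 measured genes, grouped by role, and each column an array; colour gives the log2 level minus the mean of the 2 GM-MPP arrays, red higher and blue lower, with the scale ending at -4 and 4. Slc2a1, Aldoc, P4ha1, P4ha2 and Ankrd37 are red on all 4 dendritic cell arrays, Slc2a3 and Slc16a1 are blue on all 4, and Hif1a, Vegfa, Egln3 and Fbp1 differ in colour strength or direction between the number-1 and number-2 arrays.

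The facilitative glucose transporters moved in opposite directions. Slc2a1 (GLUT1), the widespread basal transporter, was at 9.46 and 9.05 in GM-MPP, 11.28 and 11.99 in GM-DC, and 11.31 and 12.08 in GM-TNFa-DC. All 4 dendritic cell arrays were above both progenitor arrays. The rise was 5.20-fold in GM-DC (log2 change 2.38 ± 0.37 SE, adjusted p = 0.0315) and 5.43-fold in GM-TNFa-DC (2.44 ± 0.37, adjusted p = 0.025). Slc2a3 (GLUT3), a high-affinity transporter, was at 9.04 and 10.24 in GM-MPP, 6.62 and 5.56 in GM-DC, and 6.34 and 5.26 in GM-TNFa-DC. Every dendritic cell array was below both progenitor arrays. It fell 11.7-fold in GM-DC (log2 change -3.55 ± 0.60, adjusted p = 0.0382) and 14.3-fold in GM-TNFa-DC (-3.84 ± 0.60, adjusted p = 0.0264). Its 4 probe sets were all lower in GM-DC, and with their mean in place of the brightest the GM-DC change was -2.74 with adjusted p = 0.058.

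Of the 3 hexokinases, which phosphorylate glucose, only Hk2 passed the test between groups. Hk2, the inducible isoenzyme, was at 9.07 and 9.29 in GM-MPP, 10.43 and 10.49 in GM-DC, and 10.25 and 10.75 in GM-TNFa-DC, without overlap. It rose 2.43-fold in GM-DC (1.28 ± 0.24, adjusted p = 0.0476) and 2.49-fold in GM-TNFa-DC (1.32 ± 0.24, adjusted p = 0.0366). Hk3, the myeloid isoenzyme, was at 10.54 and 10.34 in GM-MPP, 8.73 and 9.56 in GM-DC, and 8.41 and 9.63 in GM-TNFa-DC. Its dendritic cell arrays were all lower, with changes of -1.30 ± 0.48 (adjusted p = 0.2) and -1.42 ± 0.48 (adjusted p = 0.145). Hk1, the broadly expressed isoenzyme, overlapped between groups at 9.15 and 9.32 in GM-MPP, 8.43 and 9.59 in GM-DC, and 8.73 and 9.86 in GM-TNFa-DC.

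No phosphofructokinase passed the test between groups in the fit by group. Pfkp, the platelet-type subunit, was at 9.42 and 9.26 in GM-MPP, 11.01 and 10.36 in GM-DC, and 11.41 and 10.49 in GM-TNFa-DC. All 4 dendritic cell arrays were above the progenitor arrays, and the changes were 1.35 ± 0.38 (adjusted p = 0.118) and 1.61 ± 0.38 (adjusted p = 0.0669). Within array numbers 1 and 2 the GM-DC change was 1.59 and 1.10. Pfkl, the liver-type subunit, was at 8.91 and 8.86 in GM-MPP, 9.20 and 10.33 in GM-DC, and 9.63 and 10.50 in GM-TNFa-DC, a change of 0.89 ± 0.46 in GM-DC (adjusted p = 0.342). Pfkm, the muscle-type subunit, overlapped between groups, with a change of -0.09 in GM-DC and -0.33 in GM-TNFa-DC. The GM-DC value for Pfkm was 0.00 after a second quantile normalization.

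Of the aldolases, which split fructose 1,6-bisphosphate, Aldoc rose. Aldoc, the brain-type enzyme, was at 8.27 and 7.09 in GM-MPP, 10.66 and 10.99 in GM-DC, and 10.08 and 10.92 in GM-TNFa-DC. The groups were apart by more than the 1.18 between the progenitor arrays. The rise was 8.85-fold in GM-DC (3.15 ± 0.48, adjusted p = 0.0294) and 7.05-fold in GM-TNFa-DC (2.82 ± 0.48, adjusted p = 0.0315). Aldoa, the muscle-type enzyme found in most cells, was at 11.98 and 11.92 in GM-MPP, 12.28 and 12.58 in GM-DC, and 12.51 and 12.61 in GM-TNFa-DC. Its change in GM-DC was 0.48 ± 0.17 (adjusted p = 0.176).

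None of the measured enzymes from triose phosphate to pyruvate was called between groups in the fit by group. Gapdh and Eno1, which also belong here, had no probe set that carried their symbol alone and were not analysed. The array's control probe sets for Gapdh were left out with the other controls. Tpi1, triose phosphate isomerase, was at 11.11 and 10.83 in GM-MPP, 11.76 and 12.60 in GM-DC, and 11.95 and 12.69 in GM-TNFa-DC. Its arrays did not overlap, and the change in GM-DC was 1.21 ± 0.37 (adjusted p = 0.142). Pgk1, the first ATP-forming step, was at 12.26 and 12.31 in GM-MPP, 12.84 and 13.34 in GM-DC, and 12.85 and 13.33 in GM-TNFa-DC. It too was higher on all dendritic cell arrays, by 0.80 ± 0.24 in GM-DC (adjusted p = 0.136). Pgam1, phosphoglycerate mutase, and Pkm, pyruvate kinase, overlapped between groups, with GM-DC changes of 0.34 and 0.03, and the value for Pkm was -0.03 after median centring. Eno2, the neuronal enolase, was the only member whose mean over the 6 arrays was below 4.77, the median of such means over all probe sets, with values from 2.91 to 4.12.

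In lactate handling 1 of 4 members, the carrier Slc16a1, was called. Slc16a1 (MCT1), which carries lactate and pyruvate in either direction, was at 8.96 and 8.58 in GM-MPP, 6.80 and 6.70 in GM-DC, and 6.33 and 6.44 in GM-TNFa-DC. The arrays of each group lay close together and the groups were far apart. It fell 4.06-fold in GM-DC (-2.02 ± 0.22, adjusted p = 0.0135) and 5.22-fold in GM-TNFa-DC (-2.38 ± 0.22, adjusted p = 0.00786). Its second, dim probe set changed by -0.10 and 0.01, and with the mean of both the changes were -1.06 (adjusted p = 0.0383) and -1.19 (adjusted p = 0.025). Slc16a3 (MCT4), the lactate exporter of glycolytic cells, was at 6.33 and 6.13 in GM-MPP, 7.35 and 7.89 in GM-DC, and 7.23 and 8.13 in GM-TNFa-DC. All 4 dendritic cell arrays were higher, with changes of 1.38 ± 0.36 (adjusted p = 0.103) and 1.44 (adjusted p = 0.0782). Ldha, which makes lactate from pyruvate, was at 11.88 and 11.46 in GM-MPP, 11.79 and 12.73 in GM-DC, and 11.96 and 12.86 in GM-TNFa-DC. The GM-DC change in Ldha was -0.09 between number-1 arrays and 1.27 between number-2 arrays. Ldhb, the heart-type subunit, changed by 0.69 in GM-DC and 0.67 in GM-TNFa-DC without passing the test.

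Also uncalled were the pyruvate dehydrogenase kinases Pdk1 and Pdk3, which restrain pyruvate entry to the mitochondria, and the regulatory enzymes Pfkfb3 and Pfkfb4, which set the level of fructose 2,6-bisphosphate. Their GM-DC changes were 0.97, -0.31, -0.25 and -0.21, in that order. Fbp1, the gluconeogenic enzyme that opposes phosphofructokinase, could not be compared between groups with any precision. Its values were 8.78 and 5.94 in GM-MPP, 10.21 and 4.26 in GM-DC, and 8.79 and 4.35 in GM-TNFa-DC, so each group spanned a wide range. The change in GM-DC was -0.13 ± 2.37 (adjusted p = 0.984).

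All 9 members of the low-oxygen response had a positive change in GM-DC and in GM-TNFa-DC, and 4 passed the test in each. Of all 18193 genes, 9658 had a positive change in GM-DC and 10196 in GM-TNFa-DC, and 1.87% and 2.77% were called higher. Within both array numbers, 7 of the 9 were positive in GM-DC and 8 in GM-TNFa-DC, as were 6460 and 7122 of the 18193 genes. The median change of the 9 was 1.61 in GM-DC and 1.67 in GM-TNFa-DC, against 0.34 in each for the 27 members of glucose metabolism. Among the regulators, Egln1 (PHD2), the main hydroxylase that marks HIF for destruction, was at 8.58 and 8.36 in GM-MPP, 9.87 and 10.29 in GM-DC, and 9.92 and 10.36 in GM-TNFa-DC. The groups did not overlap. It rose 3.06-fold in GM-DC (1.61 ± 0.26, adjusted p = 0.0334) and 3.19-fold in GM-TNFa-DC (1.67 ± 0.26, adjusted p = 0.0264). Egln3 (PHD3) was at 9.51 and 9.17 in GM-MPP, 9.70 and 11.37 in GM-DC, and 9.90 and 11.56 in GM-TNFa-DC. Its number-1 dendritic cell arrays were barely above GM-MPP, and the GM-DC change of 1.20 ± 0.73 did not pass (adjusted p = 0.409). Hif1a, the oxygen-regulated HIF-1 subunit, was at 10.32 and 9.98 in GM-MPP, 9.87 and 11.75 in GM-DC, and 9.85 and 11.93 in GM-TNFa-DC. Its GM-DC change was -0.45 between number-1 arrays and 1.77 between number-2 arrays.

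Among the targets, Ankrd37 showed the largest rise of the 36 members in GM-DC. Its level was 4.52 and 4.79 in GM-MPP, 8.69 and 8.45 in GM-DC, and 7.72 and 7.99 in GM-TNFa-DC. Both groups of dendritic cells were far above GM-MPP, and both GM-TNFa-DC arrays were below both GM-DC arrays. The rise was 15.1-fold in GM-DC (3.91 ± 0.22, adjusted p = 0.00283) and 9.19-fold in GM-TNFa-DC (3.20 ± 0.22, adjusted p = 0.00372). The mean GM-MPP level of 4.66 was below the 4.77 median of all probe sets, and RMA gives no detection call, so the progenitor level may not be above background and these folds may understate the rise. P4ha1, a catalytic subunit of the enzyme that hydroxylates collagen, was at 6.87 and 7.24 in GM-MPP, 9.17 and 9.54 in GM-DC, and 8.84 and 9.51 in GM-TNFa-DC. It rose 4.93-fold in GM-DC (2.30 ± 0.31, adjusted p = 0.0238) and 4.33-fold in GM-TNFa-DC (2.12 ± 0.31, adjusted p = 0.0236), with no overlap. P4ha2, its paralog, was at 3.64 and 3.39 in GM-MPP, 5.07 and 6.22 in GM-DC, and 6.22 and 6.25 in GM-TNFa-DC. It rose 4.38-fold (2.13 ± 0.38, adjusted p = 0.0423) and 6.59-fold (2.72 ± 0.38, adjusted p = 0.0209), but its GM-MPP values were also below 4.77, and the same limit applies to these folds.

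Bnip3, a mitophagy receptor, lay just short of the threshold. Its level was 9.96 and 9.40 in GM-MPP, 11.23 and 12.13 in GM-DC, and 11.26 and 12.16 in GM-TNFa-DC. The arrays did not overlap, and the changes were 2.00 ± 0.44 (adjusted p = 0.0705) and 2.03 (adjusted p = 0.057). Ndrg1, a stress-responsive gene of differentiating cells, was at 9.63 and 9.49 in GM-MPP, 11.31 and 10.04 in GM-DC, and 11.43 and 10.17 in GM-TNFa-DC. All dendritic cell arrays were higher, by 1.68 between number-1 arrays and 0.54 between number-2 arrays for GM-DC. Vegfa, the angiogenic growth factor, was at 6.66 and 7.39 in GM-MPP, 6.65 and 9.89 in GM-DC, and 6.97 and 10.05 in GM-TNFa-DC, and only its number-2 dendritic cell arrays stood above both progenitor arrays.

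The 3 measured pentose phosphate members were all lower on average in dendritic cells. Taldo1, of the non-oxidative branch, was at 11.95 and 11.92 in GM-MPP, 11.02 and 11.04 in GM-DC, and 10.54 and 10.88 in GM-TNFa-DC. No dendritic cell array reached the progenitor arrays. It fell 2.34-fold in GM-TNFa-DC (-1.23 ± 0.19, adjusted p = 0.0246), and the GM-DC change was -0.90 ± 0.19 (adjusted p = 0.0607). The difference of -0.33 between the dendritic cell groups was not called (adjusted p = 1). Tkt, transketolase of the same branch, was at 13.03 and 12.67 in GM-MPP, 12.17 and 12.13 in GM-DC, and 12.07 and 12.08 in GM-TNFa-DC. Its changes were -0.70 ± 0.17 (adjusted p = 0.0893) and -0.78 (adjusted p = 0.0597), and with the mean of its 3 probe sets the GM-DC change was -1.22 (adjusted p = 0.0382). Pgd, which makes NADPH in the oxidative branch, overlapped between groups, with changes of -0.47 and -0.59.

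**Figure D2:**
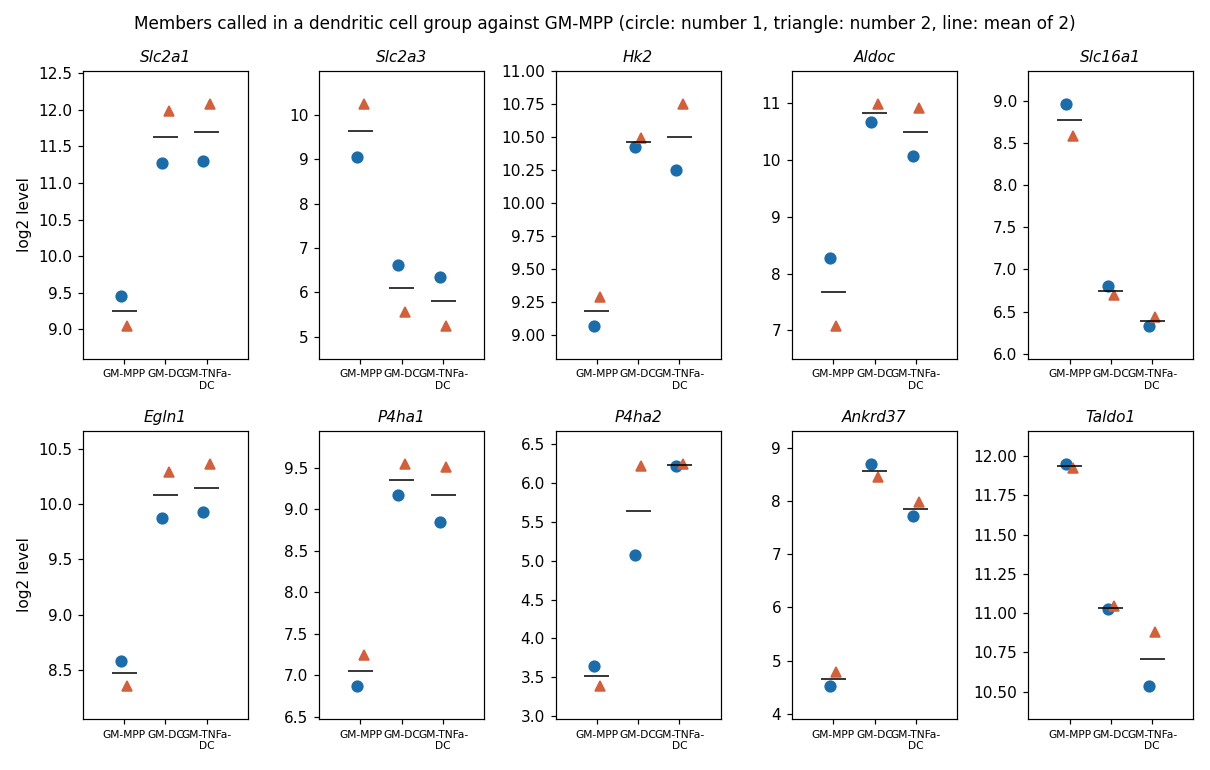
Log2 level on each array for the 10 genes called in GM-DC or GM-TNFa-DC against GM-MPP; circles are number-1 arrays, triangles number-2 arrays and lines the mean of the 2, and each panel has its own vertical scale that does not start at 0. In each panel every array of the dendritic cell groups lies on one side of both GM-MPP arrays, for example 8.45 or above in GM-DC against 4.79 or below in GM-MPP for Ankrd37.

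Most of these calls rested on having both arrays of each group. When any 1 of the 4 GM-MPP and GM-DC arrays was left out, 1 or 2 of the 9 GM-DC calls remained; Ankrd37 passed in all 4 cases (adjusted p 0.0244 to 0.0448), P4ha2 passed in 1 and the others in 0. For GM-TNFa-DC, 1 call remained without either GM-MPP array and 3 without either GM-TNFa-DC array. Within each array number every called change kept its direction, which follows from the lack of overlap between the groups and adds no support. The sizes within numbers 1 and 2 varied. In GM-DC, Slc2a1 rose by 1.82 and 2.94, Slc2a3 changed by -2.42 and -4.68, Aldoc by 2.39 and 3.90, and Egln1 by 1.29 and 1.93. In the same comparison P4ha1 changed by 2.30 and 2.30, Slc16a1 by -2.16 and -1.88, P4ha2 by 1.43 and 2.83, Hk2 by 1.35 and 1.20, and Ankrd37 by 4.17 and 3.66.

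**Figure D3:**
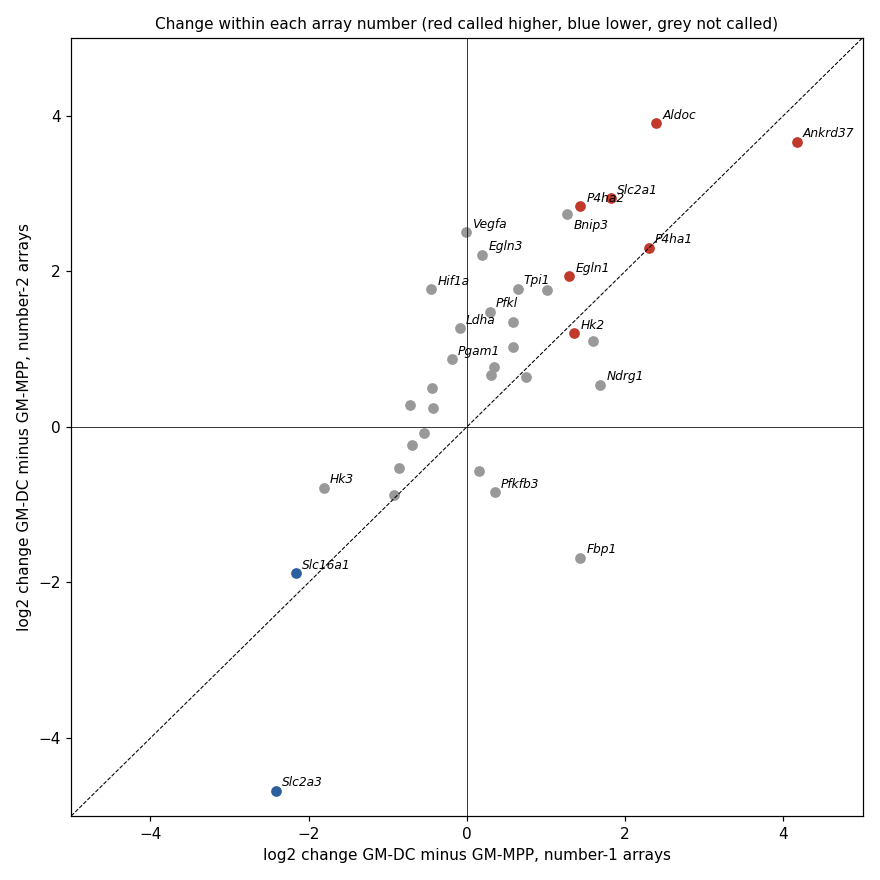
Each point is one of the 36 genes, with the log2 change from GM-MPP to GM-DC between the number-1 arrays on the horizontal axis and between the number-2 arrays on the vertical axis; the dashed line marks equal changes, red and blue points are genes called higher and lower. Ankrd37, P4ha1, Hk2 and Slc16a1 lie near the line, whereas Vegfa (-0.02 and 2.50), Egln3 (0.19 and 2.21), Hif1a (-0.45 and 1.77) and Fbp1 (1.43 and -1.68) lie far from it.

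No member was called between GM-TNFa-DC and GM-DC, and no gene of the 18193 was (background 0%, limma, lowest adjusted p = 1), while 410 genes and 1 member had an unadjusted p under 0.05. That member was Ankrd37, whose difference was -0.71 ± 0.22 with unadjusted p = 0.0198. The median difference over members was 0.04, against 0.01 for all genes. It was -0.10 between number-1 arrays and 0.09 between number-2 arrays. Both GM-TNFa-DC arrays were above both GM-DC arrays for 0 members (14.9% of all genes) and below for 4 members (10.6% of all genes), which is near the background share. Other low-oxygen genes included Adm, which encodes the vasodilator adrenomedullin. Adm differed by 1.00, with 5.47 and 6.59 in GM-DC and 6.96 and 7.10 in GM-TNFa-DC, at an adjusted p of 1. Epas1, another low-oxygen gene, went the other way, with 5.55 and 4.40 in GM-DC and 4.33 and 3.83 in GM-TNFa-DC. Among these 32 other genes, 22 differences were positive and 10 negative, against 9648 and 8545 over all genes.

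Many members differed between array numbers within the dendritic cell groups. In a limma fit of the 4 dendritic cell arrays with group as a term, 15 members were higher and 4 lower on the number-2 arrays, against 11.8% of all genes (6.41% higher and 5.41% lower). The median difference was 0.55 over members (0.46 in GM-DC and 0.73 in GM-TNFa-DC) and 0.03 over all genes. In GM-MPP, the number-2 array was lower for 24 of the 36 members, with a median of -0.18. It was lower for 9051 of all 18193 genes, with a median of 0.0006, and this compares 1 array with 1 array. The fit of the 4 dendritic cell arrays left 1 residual degree of freedom. Its spread came only from disagreement between the GM-DC and GM-TNFa-DC differences. Same-numbered arrays of these groups deviated together, and the labels do not say whether they are separate cultures. The errors and p-values between array numbers therefore do not measure the spread between cultures.

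Of the 9 members of the low-oxygen response, 4 were higher and 1 lower on the number-2 dendritic cell arrays. Vegfa was 8.92-fold higher on number-2 dendritic cell arrays (3.16 ± 0.14, adjusted p = 0.00187), Hif1a 3.94-fold (1.98 ± 0.12, adjusted p = 0.00291) and Egln3 3.17-fold (1.67 ± 0.11, adjusted p = 0.00351). All 4 Hif1a probe sets and both Vegfa probe sets were higher on number 2. Bnip3 was also higher on number 2 (0.90 ± 0.10, adjusted p = 0.0108). Ndrg1 went the other way, 2.41-fold lower on number 2 (-1.27 ± 0.11, adjusted p = 0.00547) with all 5 of its probe sets, while Ankrd37 differed by 0.01.

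In glucose metabolism 11 of 27 members were higher and 3 lower on number-2 dendritic cell arrays. The 11 were Slc2a1 (0.74), Hk1 (1.14), Hk3 (1.03), Pfkl (1.00), Pfkm (1.06), Tpi1 (0.79), Pgk1 (0.49), Pgam1 (0.87), Pkm (0.82), Ldha (0.92) and Pgd (0.94), each as a log2 difference. They include a glucose transporter, several glycolytic enzymes, Ldha and the pentose phosphate gene Pgd, while 13 of the 27 were not called. Fbp1 was 36.7-fold lower on number 2 (-5.20 ± 0.37, adjusted p = 0.0036), Slc2a3 differed by -1.07 ± 0.14 (adjusted p = 0.0156) and Pfkp by -0.79 ± 0.13 (adjusted p = 0.0243). For Slc2a3, 2 of 4 probe sets were lower and 2 higher, and with their mean the difference was -0.47 (adjusted p = 0.0722). With the mean of its 3 probe sets Pfkl differed by 0.63 (adjusted p = 0.0521). The number-2 array was the lower one for Fbp1 in GM-MPP too, by -2.84, against -5.95 in GM-DC and -4.45 in GM-TNFa-DC.

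**Figure D4:**
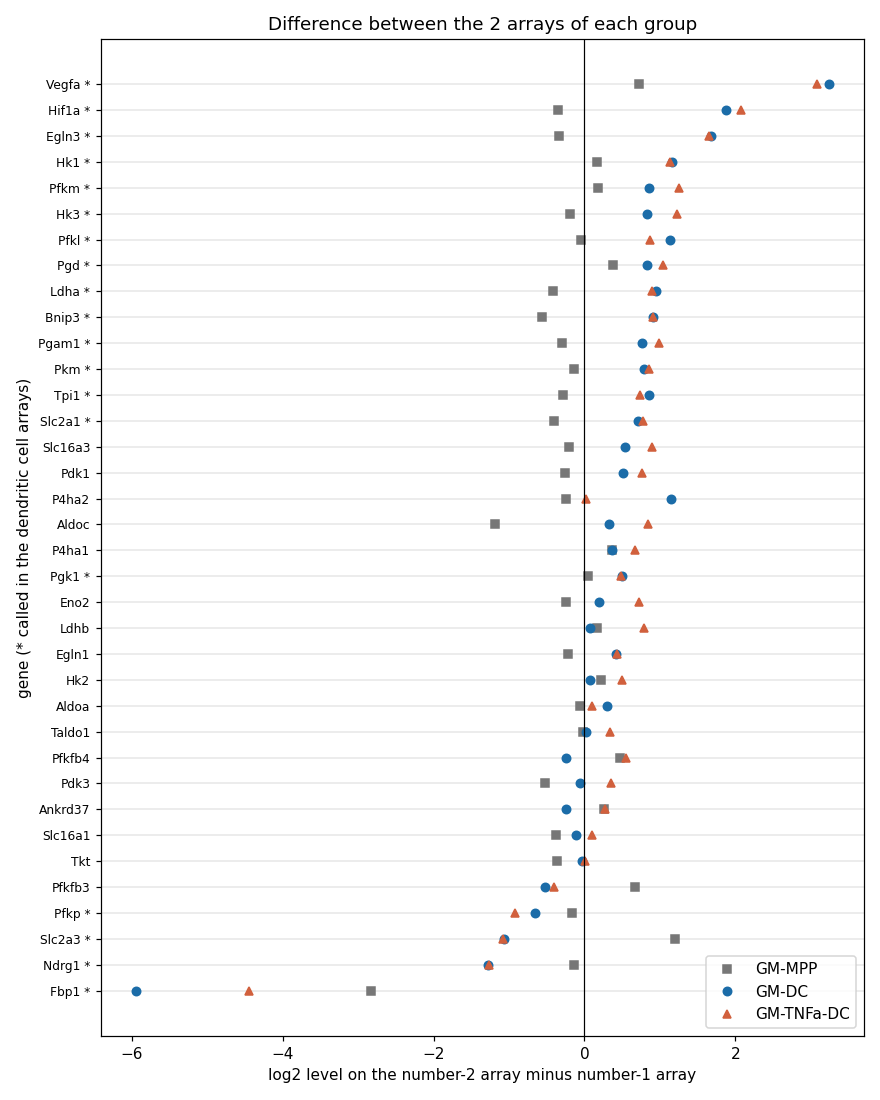
For each of the 36 genes, the log2 level on the number-2 array minus that on the number-1 array is plotted in GM-MPP (grey squares), GM-DC (blue circles) and GM-TNFa-DC (orange triangles), sorted by the dendritic cell mean; asterisks mark genes called in the dendritic cell arrays. The blue and orange points share a sign for 31 of 36 genes and lie mostly right of 0, up to 3.16 on average for Vegfa. For some genes they lie apart, such as P4ha2 (1.15 in GM-DC and 0.02 in GM-TNFa-DC). The grey squares lie left of 0 for 24 of 36 genes, and Fbp1 is left of 0 in all 3 groups.

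Other genes also differed between array numbers in the dendritic cell groups. Of 17 proliferation genes 16 were higher on number 2, with a median of 1.39, and their summed level (log2) was 12.32 and 13.52 on the GM-DC arrays, 11.93 and 13.09 on the GM-TNFa-DC arrays, and 14.74 and 14.31 in GM-MPP. All 7 dendritic cell markers were lower on number 2, with a median of -1.48, and their summed level was 15.17 and 13.52 in GM-DC, 15.41 and 13.81 in GM-TNFa-DC, and 8.91 and 9.08 in GM-MPP. Of 6 macrophage markers, Cd14 (4.85) and Fcgr1 (2.26) were higher and Mertk (-0.95) lower, and their summed level was 13.86 and 14.44 in GM-DC, 13.55 and 14.69 in GM-TNFa-DC, and 11.85 and 12.53 in GM-MPP. No macrophage marker was below the 4.77 median level on any array. The part of these genes, and of the spike-in difference, in the members' differences was not tested.

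The same lists moved between the groups. All 17 proliferation genes were lower in GM-DC on average, with a median of -1.99 (-3.01 between number-1 arrays and -0.84 between number-2 arrays), and 1, the replication helicase subunit Mcm7, was called. The summed level of 7 neutrophil markers was 15.75 and 15.99 in GM-MPP, 13.52 and 11.73 in GM-DC, and 12.03 and 11.70 in GM-TNFa-DC, and only Ctsg fell below 4.77, on the second GM-TNFa-DC array. The summed level of 5 mast cell and basophil markers was 10.85 on both GM-MPP arrays and between 7.88 and 8.84 on the dendritic cell arrays, with Fcer1a below 4.77 on all 6 arrays and Ms4a2 on the 4 dendritic cell arrays only. Their part in the members' changes was not tested.

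Further genes of the same pathways were taken from wider lists. Of 32 other low-oxygen genes, 3 rose and 1 fell in GM-DC, and 5 rose and 1 fell in GM-TNFa-DC. Their changes were mixed in sign, with 22 positive and 10 negative in GM-DC and 21 positive and 11 negative in GM-TNFa-DC. The median change was 0.52 in GM-DC and 0.77 in GM-TNFa-DC. Bhlhe40, a transcriptional repressor, was at 8.87 and 8.53 in GM-MPP, 11.18 and 11.07 in GM-DC, and 11.19 and 11.27 in GM-TNFa-DC. The dendritic cell arrays were tightly grouped above GM-MPP, with rises of 2.43 ± 0.20 (adjusted p = 0.00634) and 2.53 (adjusted p = 0.0054). Rora, a nuclear receptor, rose by 2.22 ± 0.28 and 2.70, and the transferrin receptor gene Tfrc, needed for iron uptake, changed by -2.09 ± 0.39 and -2.51. Between array numbers 10 of these 32 genes were higher and 2 lower on number 2. They included the lipid droplet gene Hilpda (3.20 ± 0.16, adjusted p = 0.002), the collagen cross-linking enzyme Lox (2.38) and the haem oxygenase Hmox1 (2.28).

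Of 9 other pentose phosphate and ribose genes, 2 fell in each dendritic cell group. Prps1, which makes the activated ribose for nucleotide synthesis, was at 9.25 and 8.93 in GM-MPP, 7.04 and 6.85 in GM-DC, and 6.67 and 6.57 in GM-TNFa-DC. Its arrays did not overlap, and it changed by -2.14 ± 0.22 (adjusted p = 0.012) and -2.47 (adjusted p = 0.00705). Rpia, ribose 5-phosphate isomerase, changed by -1.75 ± 0.24 (adjusted p = 0.0242) and -2.01 (adjusted p = 0.0146).

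Of 17 other genes of glucose transport and glycolysis, 0 passed the limma test in GM-DC (3 had an unadjusted p under 0.05) and 1 fell in GM-TNFa-DC, the mitochondrial phosphoenolpyruvate carboxykinase Pck2 (-1.63 ± 0.30, adjusted p = 0.0388). Of 11 genes of the pyruvate dehydrogenase complex and its regulators, 0 were called in either comparison, with 2 at an unadjusted p under 0.05 in each. Over all 18193 genes, 3921 had an unadjusted p under 0.05 in GM-DC and 4573 in GM-TNFa-DC. The unadjusted counts in these lists lie near that background share. Of 23 citric acid cycle genes, Idh3a, a subunit of isocitrate dehydrogenase, fell in GM-DC (-1.60 ± 0.30, adjusted p = 0.0465). In GM-TNFa-DC, Idh3a (-1.94), Idh2 (-1.27) and Idh3g (-1.02) fell. Of 11 glycogen genes, 0 were called in either group comparison (3 at an unadjusted p under 0.05 in each), while 5 were higher and 1 lower on the number-2 dendritic cell arrays, among them the branching enzyme Gbe1 (1.94) and the phosphoglucomutase Pgm1 (1.14), with the glycogen primer Gyg lower (-1.18).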

How the data were processed

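The 6 arrays, 2 in each of 3 groups, were analysed from the deposited table of 45101 probe sets, whose values the authors made with RMA, per the submitters' processing notes, in Bioconductor, per the labels. The table states no scale, and log2 was inferred from the range of the deposited values (1.89 to 14.4). Probe set summarisation by RMA sets no detection call, and depth has no meaning for arrays, so the number of arrays limits the precision. The 64 control probe sets were left out. Names came from the platform annotation: 34945 probe sets had 1 symbol, 932 several and 9160 none, and 34741 matched the RefSeq table by Entrez identifier. Each of 18193 genes was represented by the brightest probe set, by 6-array mean, that carried its symbol alone, and 22 members had more than 1.

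limma 3.58.1 (R 4.3.3) was fitted to all 6 arrays by group with an intensity trend (3 residual degrees of freedom). P-values were adjusted over all genes by Benjamini-Hochberg, with a threshold of 0.05. Array number was compared in the 4 dendritic cell arrays with group as a term. The test of that difference against GM-MPP was added after seeing the data. The fits were tested on simulated data of 18193 genes: simulating GM-DC against GM-MPP, 60% of those raised by 2 (log2) and 18% of those raised by 1 were called, and between array numbers 96% and 28%. Members and gene lists were chosen with earlier results of these data known. Every member is accounted for, those called or without overlap at a change of 1 or more are given on every array with their family, and at most 3 called genes of each wider list are named (2 where none was called). Adm, Bhlhe40 and genes used to check labels are given where a result turns on them. Alternatives changed the normalization, the probe set rule, the dim-gene filter, the variance model, the replicate block and the arrays used.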

Additional observations from a re-analysis of the deposited data

Results flagged for a closer look

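For 6 members the difference between number-2 and number-1 arrays was called as differing between dendritic cells and GM-MPP. This was tested in limma as the mean difference in the GM-DC and GM-TNFa-DC arrays minus that in the GM-MPP arrays, with Benjamini-Hochberg adjustment over all genes, and it called 2.53% of the 18193 genes. The test was chosen after seeing the data. The GM-MPP difference had no replicate, so the spread in this fit came only from disagreement between the GM-DC and GM-TNFa-DC differences. The errors and p-values therefore do not measure the spread between GM-MPP arrays. Hif1a, the oxygen-regulated HIF-1 subunit, differed by 2.32 ± 0.21 on the log2 scale (adjusted p = 0.0252), with number 2 higher in both dendritic cell groups and lower in GM-MPP. Vegfa differed by 2.43 ± 0.24 (adjusted p = 0.0265), with number 2 higher in all 3 groups but by more in dendritic cells. Egln3 differed by 2.01 ± 0.20 (adjusted p = 0.0265), Bnip3 by 1.46 ± 0.18 (adjusted p = 0.0346) and Ldha by 1.34 ± 0.16 (adjusted p = 0.0336), each with number 2 higher in both dendritic cell groups and lower in GM-MPP. Slc2a3 went the other way, at -2.27 ± 0.24 (adjusted p = 0.0286), with number 2 lower in both dendritic cell groups and higher in GM-MPP. Fbp1, whose number-2 array was the lower one in all 3 groups, was not called.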

How the results depend on the processing

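Outside the fits that leave out an array, the count of called members stayed within 1.5 times its main value in each comparison between groups, from 7 to 11 in GM-DC and from 7 to 14 in GM-TNFa-DC. Of the 9 members called in GM-DC, 5 passed under all 8 alternatives of this kind, as did 7 of 10 in GM-TNFa-DC and 16 of 19 between array numbers under 6. The losses lay near the threshold: in GM-DC, Slc2a3 had adjusted p = 0.0515 after a second quantile normalization, Hk2 0.0503 after median centring, Egln1 0.0508 with the mean of probe sets and P4ha2 0.0618 with only the arrays of both groups compared. With those arrays only, 749 genes were called in GM-TNFa-DC, and Hk2 (0.0714), Aldoc (0.0573) and Taldo1 (0.0534) were lost there. Leaving out each array in turn gave 1 to 8 called members and 50 to 717 called genes in GM-DC, 1 to 7 members and 91 to 760 genes in GM-TNFa-DC, and a median difference between the dendritic cell groups from -0.33 to 0.34. Fewer arrays and fewer residual degrees of freedom enter those fits. A minimum of 2-fold left 10 members (7 higher, 3 lower) and 1244 genes between array numbers, and comparing that difference with GM-MPP left 6 members. No array could be left out there, since no residual degree of freedom would remain. Some members that were not called changed sign: outside leave-one-out fits, 2 in GM-DC, 2 in GM-TNFa-DC and 3 between the dendritic cell groups.

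Deviations of same-numbered arrays from their group means correlated at 0.105 for GM-MPP with GM-DC and 0.0719 for GM-MPP with GM-TNFa-DC. For GM-DC with GM-TNFa-DC the correlation was 0.806. By this measure only the dendritic cell arrays of the same number deviated together, and the labels do not say what they share. The poly-A spike-in controls, however, shifted the same way in all 3 groups. In GM-MPP too, 24 of 24 probe sets gave more signal on number 1, at a ratio of 2.39. The main fit did not use the numbers as pairs across the 3 groups. Changes between dendritic cell and GM-MPP arrays of the same number are given above as a description only. The labels do not say that such arrays are paired. With the replicate block, 11 members and 1476 genes were called in GM-DC, 14 members and 2060 genes in GM-TNFa-DC, and 0 between the dendritic cell groups. The added calls included Pfkp (adjusted p = 0.0392 in GM-DC and 0.0226 in GM-TNFa-DC), Taldo1 in GM-DC (0.0465), and Bnip3, Tkt and Pgk1 in GM-TNFa-DC (0.0452, 0.0452 and 0.0469). With the block on the 4 dendritic cell arrays alone, limma called 0 genes between these groups (lowest adjusted p = 0.157), and 1474 genes and 1 member had an unadjusted p under 0.05.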
